A study of Homo sapiens with 13 samples.

Results

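The 34 genes described here encode heat shock proteins, the chaperones and co-chaperones that work with them, and HSF1, the transcription factor that switches many of them on. They were chosen by gene symbol from a list of symbols chosen by function, and all 34 were found among the 38369 gene rows of each deposited table. By role they were 4 HSP70 proteins, 3 HSP110 proteins, 5 J-domain proteins, 2 HSP90 proteins, 7 partners of HSP90 and HSP70, 2 small heat shock proteins with BAG3, the 2 mitochondrial chaperonin proteins, 7 subunits of the cytosolic chaperonin TRiC, and HSF1. All but 3 act mainly in the cytosol and nucleus; HSPA9, HSPD1 and HSPE1 are mitochondrial.

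PolyA-selected RNA of MCF10A cells, a non-tumorigenic human breast epithelial line that the labels list under the cell type "breast cancer", was sequenced in a pair of experiments. The first used parental MCF10A cells harvested 72 h after transduction with the long non-coding RNA LINC00520 (n = 2 libraries), and untransduced cells of the same time point, which a label also calls mock transduced, as their control (n = 3). The second followed MCF10A-Src cells, a derivative that transforms when tamoxifen switches on an introduced Src kinase, with 1 library before tamoxifen (0 h) and 2, 1 and 2 libraries after 4, 12 and 36 h of it. All cells grew in medium with serum, hydrocortisone, cholera toxin, EGF and insulin, so every group, controls included, was exposed to a glucocorticoid and to growth factors. The labels do not say whether replicates were grown separately; if they were not, the p-values reflect a technical spread. Libraries of the control lincRNA AC006262 were not analysed here, so the effect of LINC00520 and that of transduction itself cannot be told apart.

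Chaperones bind unfolded or partly folded proteins and keep them from clumping. HSP70 takes its clients from J-domain proteins, which stimulate its ATPase, and gives them up with the help of HSP110, its nucleotide exchange factor; STIP1 then passes some of them on to HSP90, which matures kinases and steroid receptors and is known for holding the viral form of Src. TRiC folds actin and tubulin. When unfolded proteins accumulate, HSF1 forms a trimer and binds the heat shock element, an array of inverted GAA units, in front of many of these genes.

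Promoter windows of 300 bases (250 before and 50 from each annotated start, RefSeq, GRCh38.p14) were held for 31 of the 34 genes; HSF1, FKBP4 and ST13 had none. An element of 3 inverted units, GAANNTTCNNGAA or TTCNNGAANNTTC, which are each other's reverse complement so that both strands were searched, was present in 7 of the 31 genes (22.6%), against 0.608% of the 27305 genes of the table. The shorter 2-unit forms GAANNTTC and TTCNNGAA, each its own reverse complement and each contained in the longer element, were present in 19 of the 31 genes (61.3%), against 16.2% of all genes. Such matches describe the letters in these windows and are not binding measurements. The elements (capitals) of HSPA8, HSP90AA1 and CHORDC1 are printed because these genes were among the largest rises after LINC00520 transduction, and those of HSP90AB1 and DNAJB6 because these genes rose less. Each is read 5′ to 3′ on its gene's strand with 20 bases either side, and its distance is that of its first base from the annotated start. HSPA8 and HSP90AB1 carried a pair of elements each, and that of CHORDC1 continued over 23 bases.
HSPA8, chr11:123062334-123062386, minus strand, 230 bases before the start: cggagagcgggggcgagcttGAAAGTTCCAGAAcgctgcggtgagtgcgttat
HSPA8, chr11:123062159-123062211, minus strand, 55 bases before the start: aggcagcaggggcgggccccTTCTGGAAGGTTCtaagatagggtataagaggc
HSP90AA1, chr14:102087100-102087152, minus strand, 88 bases before the start: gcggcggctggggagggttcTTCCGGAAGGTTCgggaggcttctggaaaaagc
CHORDC1, chr11:90223067-90223129, minus strand, 60 bases before the start: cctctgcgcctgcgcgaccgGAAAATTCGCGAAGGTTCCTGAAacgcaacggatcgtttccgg
HSP90AB1, chr6:44247758-44247810, plus strand, 165 bases before the start: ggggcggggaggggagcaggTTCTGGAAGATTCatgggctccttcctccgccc
HSP90AB1, chr6:44247811-44247863, plus strand, 112 bases before the start: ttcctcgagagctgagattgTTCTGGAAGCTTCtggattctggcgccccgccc
DNAJB6, chr7:157336853-157336905, plus strand, 131 bases before the start: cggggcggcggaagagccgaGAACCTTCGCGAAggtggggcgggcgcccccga
Of the other 2 genes, DNAJA1 held GAACTTTCCAGAA 3 bases after its start and HSPD1 held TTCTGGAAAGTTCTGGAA 245 bases before the second of its annotated starts. HSPD1 and HSPE1 lie head to head on chromosome 2, and the first annotated start of HSPD1 is 105 bases from that of HSPE1. In the deposited tables both rows have the same hg19 locus, 198351309 to 198368186.

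Depth was 23.4 to 25.2 M fragments in the LINC00520 libraries and 22.9 to 36.4 M in the untransduced ones, and 12.6 to 52.3 M in the time course, where the 36 h replicate 2 library was the shallowest. LINC00520 itself (the row linc-TBPL2-2) had 1122 and 1031 fragments in transduced cells, against 5, 6 and 2 in untransduced cells. It had 91 at 0 h, 30 and 22 at 4 h, 415 at 12 h, and 3346 and 2124 at 36 h. These fragments are not scaled for depth, which was highest at 0 h (52.3 M) and stood at 18.5 and 23.3 M at 4 h. Replicates varied with a common coefficient of 0.0249 in parental cells and 0.162 in the time course, so a change of the same size was harder to detect in the second. The basal keratin gene KRT5 stood at 1022 to 2776 FPKM in all 11 libraries. CDH5, of endothelium, had no fragments in any of them, and CD3E, of T cells, had them only in 1 library at 36 h. Other markers listed for non-epithelial cells did have fragments. At 0 h those of immune or blood cells summed to 7.27 CPM and those of fibroblasts to 80.2 CPM (CPM is defined below). Endothelial markers reached 0.141 CPM at 12 h. In bulk RNA, fewer cells of a kind and less RNA per cell cannot be told apart.

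The chaperone genes spanned a wide range of levels in these cells. On the deposited FPKM scale, which divides by transcript length and so allows genes to be compared, the constitutive HSP70 gene HSPA8 was highest in untransduced cells at 1465 ± 42.6 (SD, n = 3), followed by HSP90AA1 at 863 ± 30.8, HSP90AB1 at 812 ± 10.9 and HSPD1 at 659 ± 12.0. The stress-inducible HSP70 genes were far down this order, HSPA1B at 14.7 ± 0.0798 and HSPA1A at 1.43 ± 0.0554, and the small heat shock gene HSPB8 was last at 1.07 ± 0.138. Neighbours within the middle of the order did not separate beyond their spread: CCT8 (283 ± 1.17), CCT7 (279.9 ± 7.69) and HSPE1 (279.5 ± 9.78) are an example. HSPA1A and HSPA1B encode nearly the same protein, the row used for HSPA1A carries both symbols, and HSPA1L lies at the same locus, so reads of these genes could be split between rows and their separate values are uncertain. The HSP90AB1 row likewise carries the symbol of a pseudogene, HSP90AB3P.

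**Figure D1:**
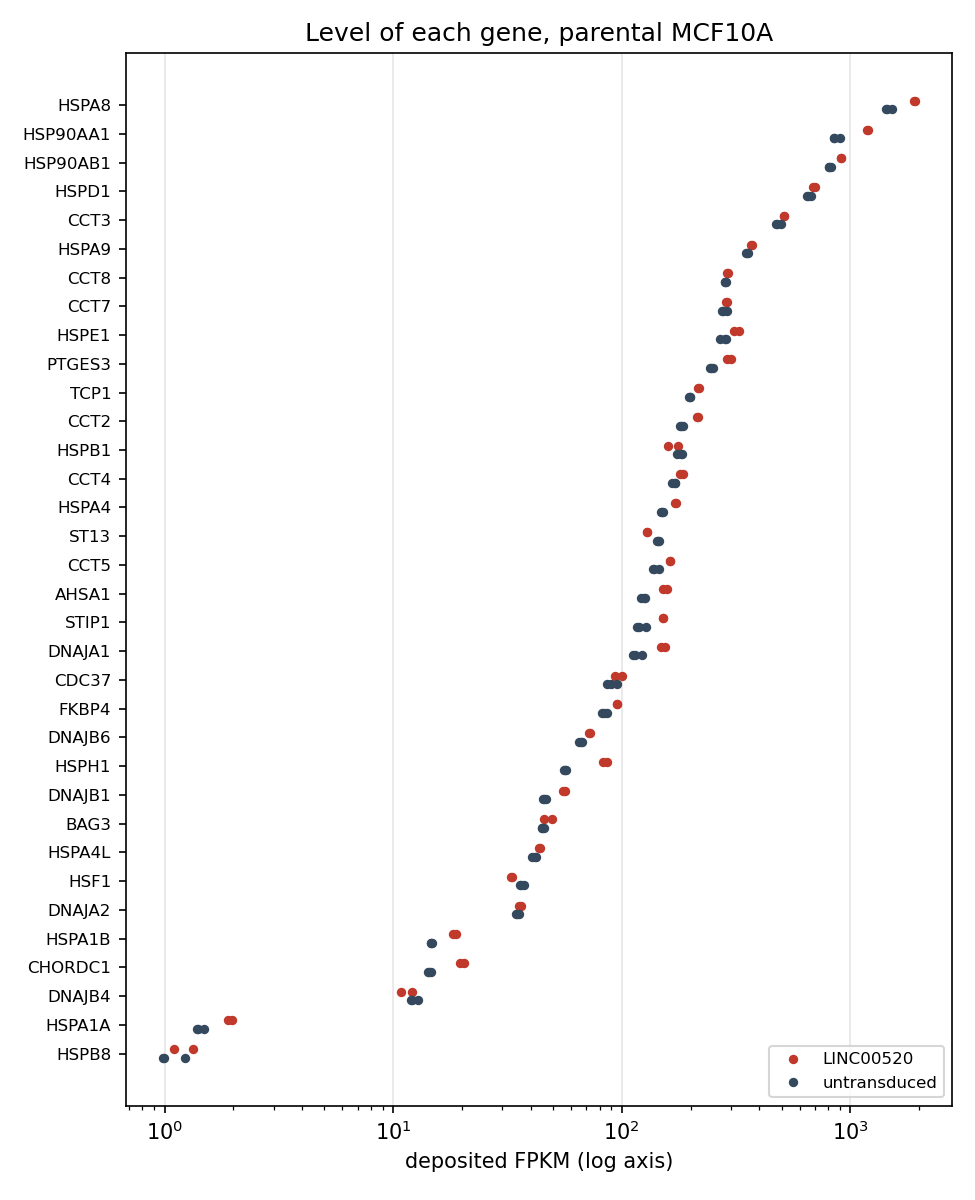
Deposited FPKM (log axis) of each gene in LINC00520-transduced cells (red, 2 libraries) and untransduced cells (blue, 3 libraries), ordered by the untransduced mean. HSPA8 leads at 1465 FPKM in untransduced cells and HSPB8 is last at 1.07, and the red points lie right of the blue ones for most genes from HSPA8 down.

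Taken as a sum, the 34 genes held 2.03% and 2.01% of all fragments in LINC00520 cells, against 1.80%, 1.76% and 1.74% in untransduced cells. These groups did not overlap. HSPA8, HSP90AA1, HSP90AB1 and HSPD1 together made up 55.6% and 55.6% of that sum in LINC00520 cells, against 53.0%, 52.5% and 52.5% in untransduced cells. The sum therefore mostly follows 4 genes, and the genes are given one by one.

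Most of the HSP70 and HSP90 system was higher 72 h after LINC00520 transduction, by modest amounts. Of the 34 genes, 24 rose and 2 fell by edgeR's quasi-likelihood test with Benjamini-Hochberg adjustment over 12790 genes (threshold 0.05), and 8 did not pass. Of all genes tested 50% passed in this comparison, 25.2% higher and 24.8% lower, and the members' counts are to be read against these shares. The median log2 fold change was 0.17 over the 34 genes and 0.00084 over all genes tested, and single genes ran between -0.16 and 0.59. Levels below are CPM, the gene's fragments relative to those of all tested genes, scaled between libraries by TMM factors. In 27 genes every LINC00520 library was above every untransduced one (33.2% of all genes) and in 2 every one was below (33.3%).

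**Figure D2:**
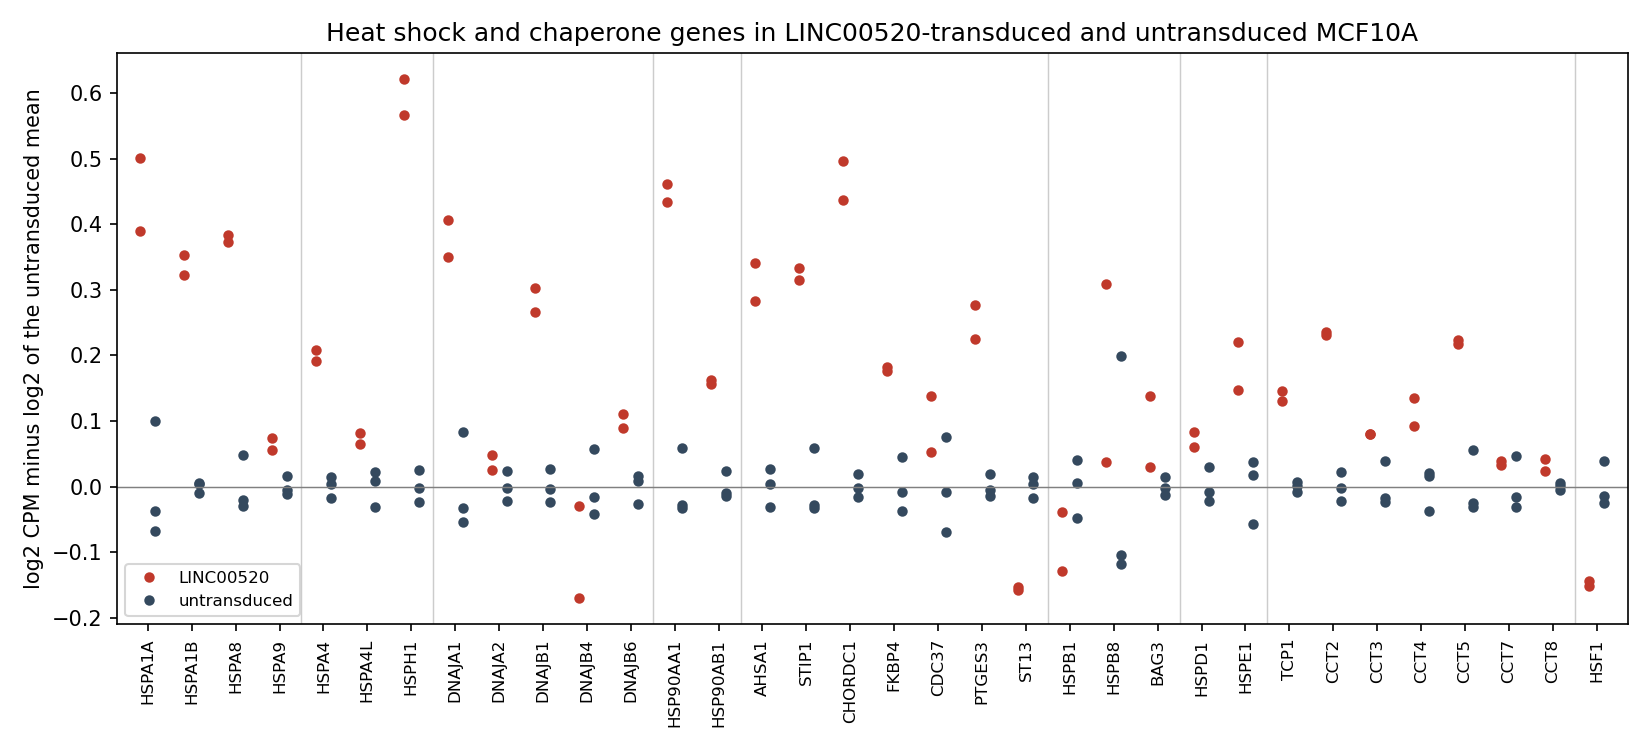
Log2 CPM of each gene in each library minus log2 of its untransduced mean, in LINC00520 cells (red, 2 libraries) and untransduced cells (blue, 3 libraries); vertical lines part the roles. HSPH1 sits highest, at 1.51-fold, while ST13 and HSF1 lie below 0 in both LINC00520 libraries.

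All 4 HSP70 genes were called higher, HSPA1A and HSPA9 with an adjusted p close to the threshold. HSPA8, the constitutive cytosolic HSP70, had 4176 and 4206 CPM in LINC00520 cells, against 3334, 3177 and 3158 CPM in untransduced cells (log2 0.38, SE 0.029, edgeR adjusted p = 9.63e-11). Its libraries did not overlap between the groups. HSPA1B, a stress-inducible HSP70, had 45.8 and 46.8 CPM in LINC00520 cells, against 36.7, 36.4 and 36.7 CPM in untransduced cells (log2 0.34, SE 0.048, edgeR adjusted p = 2.81e-06). The row of HSPA1A had 2.55 and 2.36 CPM in LINC00520 cells, against 1.76, 1.93 and 1.72 CPM in untransduced cells (log2 0.45, SE 0.18, edgeR adjusted p = 0.0426). That row rested on 62 and 53 fragments in the LINC00520 libraries and on 39 to 63 in the untransduced ones. It lost its call with DESeq2 and without untransduced replicate 1 or 3. HSPA9, the mitochondrial HSP70, moved least of the 4 (log2 0.07, SE 0.027, edgeR adjusted p = 0.047). Its call was lost with limma on log2(FPKM + 1) (limma adjusted p = 0.0564) and with upper-quartile scaling (edgeR adjusted p = 0.108).

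Of the HSP110 genes, whose products reload HSP70, 2 of 3 rose. HSPH1 (hg19 chromosome 13, 31710764 to 31745610) had the largest rise of all 34 genes, at 310.3 and 299 CPM in LINC00520 cells, against 205, 201 and 198 CPM in untransduced cells (log2 0.59, SE 0.030, edgeR adjusted p = 6.32e-14; 1.51-fold). HSPA4 rose by 0.20 on the log2 scale (SE 0.027). HSPA4L, a close relative of HSPA4, was not past the test, with 144 ± 1.23 CPM in LINC00520 cells and 136 ± 2.57 CPM in untransduced cells (SD, n = 2 and 3).

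Of the 5 J-domain genes 3 rose. DNAJA1, a farnesylated partner of HSPA8, had 215 and 223 CPM in LINC00520 cells, against 178, 162 and 165 CPM in untransduced cells (log2 0.38, SE 0.036, edgeR adjusted p = 5.44e-09). DNAJB1, the J-domain protein of the classical heat shock response, had 124 and 121 CPM in LINC00520 cells, against 102, 98.7 and 100.2 CPM in untransduced cells (log2 0.28, SE 0.033, edgeR adjusted p = 1.69e-07). Both genes had LINC00520 libraries that lay wholly above the untransduced ones. DNAJB6, a suppressor of protein aggregation, rose by 0.10 (SE 0.033), and DNAJA2 (log2 0.04, SE 0.033) and DNAJB4 (log2 -0.10, SE 0.059) did not pass.

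Both HSP90 genes rose. HSP90AA1, the stress-inducible form, had 3660.0 and 3589.9 CPM in LINC00520 cells, against 2769, 2608 and 2598 CPM in untransduced cells (log2 0.45, SE 0.030, edgeR adjusted p = 9.91e-12). HSP90AB1, the constitutive form, averaged 2279.9 ± 6.19 CPM in LINC00520 cells and 2042 ± 28.8 CPM in untransduced cells (SD, n = 2 and 3; log2 0.16, SE 0.027). The inducible form thus showed the larger fold; the difference between the 2 folds was not tested.

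Of the 7 co-chaperones 6 rose and 1 fell. CHORDC1, an HSP90-binding protein with zinc-binding CHORD domains (hg19 chromosome 11, 89933596 to 89969391), had 69.4 and 66.5 CPM in LINC00520 cells, against 48.6, 49.1 and 49.8 CPM in untransduced cells (log2 0.47, SE 0.043, edgeR adjusted p = 2.29e-09). STIP1, the scaffold that joins HSP70 to HSP90, had 297 and 301 CPM in LINC00520 cells, against 249, 234 and 235 CPM in untransduced cells (log2 0.32, SE 0.031, edgeR adjusted p = 7.18e-09). AHSA1, which stimulates the ATPase of HSP90, had 196 and 204 CPM in LINC00520 cells, against 164, 161 and 158 CPM in untransduced cells (log2 0.31, SE 0.031, edgeR adjusted p = 1.28e-08). In all 3 genes no LINC00520 library overlapped an untransduced one. PTGES3 (p23, which stabilises the closed form of HSP90) rose by 0.25 (SE 0.028). FKBP4 (a peptidyl-prolyl isomerase of steroid receptor complexes) rose by 0.18 (SE 0.030) and CDC37 (the kinase-specific partner) by 0.09 (SE 0.038). The CDC37 libraries overlapped, with 149 and 158 CPM in LINC00520 cells, against 151, 137 and 142 CPM in untransduced cells. CDC37 lost its call with DESeq2 (DESeq2 adjusted p = 0.0996). ST13, a protein that slows the release of ADP from HSP70, fell, with 415 and 413 CPM in LINC00520 cells, against 462, 465 and 455 CPM in untransduced cells (log2 -0.16, SE 0.028, edgeR adjusted p = 5.33e-05).

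The 3 genes of the small heat shock group did not pass the test. HSPB1 (HSP27), which holds unfolded proteins without using ATP, averaged 120.3 ± 5.31 CPM in LINC00520 cells and 127 ± 3.99 CPM in untransduced cells (SD, n = 2 and 3). HSPB8 averaged 2.36 ± 0.314 CPM in LINC00520 cells and 2.09 ± 0.269 CPM in untransduced cells. BAG3, the co-chaperone that links HSPB8 to HSP70 in selective autophagy, averaged 118 ± 6.27 CPM in LINC00520 cells and 111 ± 1.07 CPM in untransduced cells. BAG3 and HSPB1 missed the threshold narrowly (edgeR adjusted p = 0.0515 and 0.0602) with log2 values of 0.08 and -0.08.

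The chaperonins showed small differences. Of the mitochondrial pair, HSPE1 rose by 0.18 (SE 0.033) and its partner HSPD1 by 0.07 (SE 0.027) (their rows have the same deposited locus). Of the 7 TRiC subunits 5 rose, CCT2 by 0.23 (SE 0.028), CCT5 by 0.22 (SE 0.030), TCP1 by 0.14 (SE 0.027), CCT4 by 0.11 (SE 0.029) and CCT3 by 0.08 (SE 0.028). CCT7 (log2 0.04) and CCT8 (log2 0.03), each with an SE of at most 0.029, did not pass, so the subunits of this one complex had folds that spread from 1.02 to 1.18. The median log2 fold change was 0.11 over TRiC, 0.36 over the HSP70 genes, 0.30 over HSP90 and 0.25 over the co-chaperones.

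HSF1 (hg19 chromosome 8, 145515269 to 145550567) fell while most of the other genes rose. It had 69.1 and 69.4 CPM in LINC00520 cells, against 75.4, 78.9 and 76.0 CPM in untransduced cells (log2 -0.15, SE 0.038, edgeR adjusted p = 0.00235). Both LINC00520 libraries lay below all 3 untransduced ones. These are transcript levels; HSF1 is regulated largely by its folding state and phosphorylation, which RNA does not measure.

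Set beside the promoter elements, the 7 genes with a 3-unit element (HSPA8, HSP90AA1, HSP90AB1, CHORDC1, DNAJA1, DNAJB6 and HSPD1) all rose, with a median log2 fold change of 0.38. Of all genes tested 25.2% were called higher. Values of other genes that carry the element are not given here. The counts are therefore a description, and whether the element goes with a rise was not tested. Of the 24 genes with a window but no such element 16 rose, with a median of 0.16. HSPA1A, HSPA1B and DNAJB1 were among these 24 and held a 2-unit form. The calls of HSPD1 and DNAJB6, which held the 3-unit form, were lost under some alternatives. The HSPD1 element lies before the second annotated start of that gene but after the first, and the DNAJA1 element lies after its start. HSPH1, which rose most, was among those without a 3-unit element in the window searched.

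In the authors' deposited table for this comparison, 9 of the 34 genes had a q-value below 0.05, all of them higher (6.61% of 14753 rows were higher and 6.26% lower). They were HSPH1, CHORDC1, HSP90AA1, HSPA8, DNAJA1, HSPA1B, STIP1, AHSA1 and DNAJB1, which are the genes with the largest rises above other than HSPA1A. For HSPH1 the authors' deposited table gave a log2 fold change of 0.58.

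Markers of cell identity moved in the same comparison. Of 6 basal epithelial markers 4 rose and 0 fell, KRT14 by 1.44, and their summed level was 8831 to 9078 CPM in LINC00520 cells and 7978 to 8250.0 CPM in untransduced cells. All 4 luminal markers fell, EPCAM by 0.74 and KRT8 by 0.70, and their sum was 790.2 to 809 CPM in LINC00520 cells and 1090.2 to 1099 CPM in untransduced cells. Fibroblast markers summed to 92.4 to 93.1 CPM in LINC00520 cells and 90.04 to 93.6 CPM in untransduced cells, with COL3A1 at or near 0. Immune or blood markers summed to 7.31 to 7.66 CPM in LINC00520 cells and 9.42 to 11.6 CPM in untransduced cells, with PTPRC at or near 0. Of the 2 tested, CD14 fell by 0.59, and HBB, a haemoglobin gene, rose on 13 and 15 fragments in LINC00520 cells, against 3, 0 and 0 in untransduced cells. HBB could reach the required FPKM of 1 in 2 libraries only with a LINC00520 library, so the filter favoured a rise. The rows of the luminal marker KRT19 and the fibroblast marker PDGFRA also carry JUP and FIP1L1, so part of those sums, in both experiments, may come from genes that are not markers. The part of these shifts in the chaperone result was not tested. None of the 34 genes changed direction with any 1 library left out. With 1 untransduced library left out, 18 to 23 of the genes were called higher (22.4% to 24.8% of all genes) and 2 to 3 lower (22.3% to 24.5%). Each of the 5 libraries, when left out, cost at least 1 of the calls of HSPA1A, HSPA9, DNAJB6, CDC37, HSPD1, CCT3 and CCT4 (edgeR adjusted p = 0.0576 to 0.432 where lost), and 19 of the 26 calls held under every alternative tried.

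**Figure D3:**
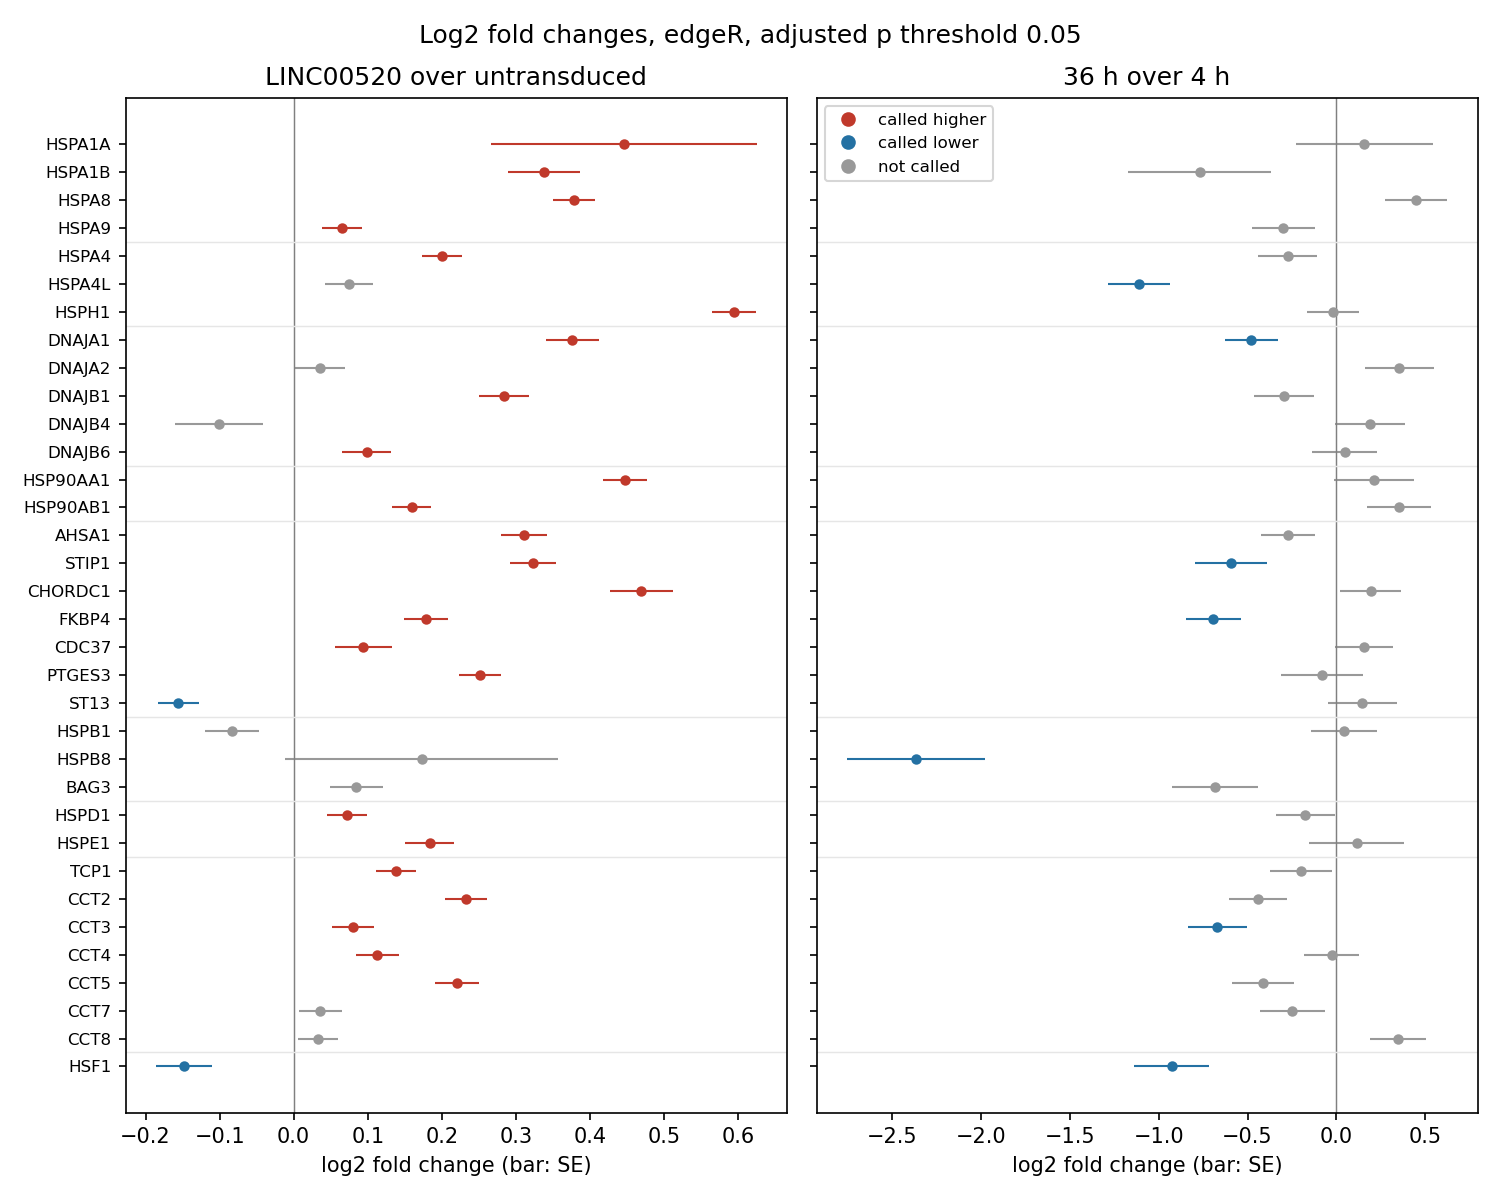
Log2 fold change and its SE for each gene, LINC00520 over untransduced cells (left) and 36 h over 4 h of tamoxifen (right; a wider axis), coloured by edgeR call. On the left 24 genes are called higher, led by HSPH1 at 0.59, and on the right 7 are called lower, led by HSPB8 at -2.37. HSPB8 passed the FPKM filter through its 4 h libraries alone.

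MCF10A-Src cells were compared between 36 h and 4 h of tamoxifen. Between 4 h and 36 h of tamoxifen, 7 of the 34 fell and 0 rose by the same edgeR test over 15572 genes, against 20.5% of all genes called lower and 18.8% called higher (39.4% in all). The 7 of 34 that fell are thus about the share found among all genes. The genes that fell came from 6 of the 9 roles, and the median log2 fold change was -0.19 over the 34 genes and -0.039 over all genes. Without adjustment 1 gene was higher and 10 lower at p below 0.05, 11 of 34, against 48.9% of all genes. DESeq2 called 1 gene higher (HSPA8) and 7 lower, with BAG3 in place of DNAJA1, against 18.6% and 17.1% of all genes. Limma on log2(FPKM + 1) called 0 higher and 4 lower (HSPA4L, FKBP4, HSPB8 and HSF1), against 15% and 14.9% of all genes. In 4 genes both 36 h libraries lay above both 4 h libraries (33.8% of all genes) and in 15 both lay below (37.3%).

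HSPB8, a small heat shock protein that acts with BAG3 (hg19 chromosome 12, 119616594 to 119632550), fell most. It had 1.42 CPM at 0 h, then 2.44 and 2.55 at 4 h, 1.70 at 12 h and 0.483 and 0.474 at 36 h (36 h over 4 h, log2 -2.37, SE 0.39, edgeR adjusted p = 0.0027). The 36 h values stand on 10 and 5 fragments and the 4 h values on 47 and 60. Only the 4 h libraries reached the FPKM of 1 needed for testing (1.32 and 1.41, against 0.751 at 0 h and 0.906 at 12 h). HSPB8 thus entered the test through the group where it was highest, so its fall from 4 h is no independent result. HSPA4L, of the HSP110 family (hg19 chromosome 4, 128703452 to 128820350), had 196 CPM at 0 h, then 158 and 186 at 4 h, 175 at 12 h and 87.9 and 71.2 at 36 h (log2 -1.11, SE 0.17, edgeR adjusted p = 0.00221). Both genes were also lower at 36 h than at 0 h, and in both the 36 h libraries were the lowest of the series.

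HSF1 had 21.5 CPM at 0 h, then 38.7 and 27.9 at 4 h, 28.8 at 12 h and 17.1 and 17.9 at 36 h (log2 -0.93, SE 0.21, edgeR adjusted p = 0.0104). The 4 h libraries lay apart by 1.39-fold, and the 36 h libraries were the lowest of the series. HSF1 is the one gene that was called lower in this comparison and after LINC00520 transduction as well, while DNAJA1, STIP1, FKBP4 and CCT3 rose after transduction and fell here. These experiments share no library.

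The HSP90 co-chaperones FKBP4 and STIP1 fell too. FKBP4 had 194 CPM at 0 h, then 197 and 229 at 4 h, 246 at 12 h and 133 and 131 at 36 h (log2 -0.69, SE 0.15, edgeR adjusted p = 0.00968). STIP1 had 204 CPM at 0 h, then 204 and 269.8 at 4 h, 282 at 12 h and 178 and 136 at 36 h (log2 -0.59, SE 0.20, edgeR adjusted p = 0.0479). Both were highest at 12 h and lowest at 36 h. The STIP1 pairs spread by 1.32-fold at each of 4 h and 36 h, and its call was lost with limma, without the 4 h replicate 2 library (log2 -0.33, edgeR adjusted p = 0.152) and without the 36 h replicate 2 library (log2 -0.41, edgeR adjusted p = 0.311). With either 36 h library left out the calls of FKBP4, CCT3 and DNAJA1 were lost too (edgeR adjusted p = 0.0632 to 0.267).

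CCT3, a TRiC subunit, had 599 CPM at 0 h, then 656 and 798 at 4 h, 790.3 at 12 h and 456 and 457 at 36 h (log2 -0.67, SE 0.17, edgeR adjusted p = 0.0149). The J-domain gene DNAJA1 had 75.5 CPM at 0 h, then 99.6 and 102 at 4 h, 109.8 at 12 h and 70.8 and 73.6 at 36 h (log2 -0.48, SE 0.15, edgeR adjusted p = 0.0342). In both genes the 36 h libraries were close to each other and below those of 4 h. DNAJA1 lost its call with DESeq2 (log2 -0.43, adjusted p = 0.081) and with limma (adjusted p = 0.0617), and CCT3 with limma (adjusted p = 0.0773). The other TRiC subunits did not pass: CCT2 gave -0.44 (SE 0.16), CCT5 -0.41 (SE 0.17), CCT7 -0.25 (SE 0.18), TCP1 -0.20 (SE 0.17), CCT4 -0.03 (SE 0.16) and CCT8 0.35 (SE 0.16) on the log2 scale.

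The most abundant members were not called between these times. HSPA8 had 2185 CPM at 0 h, then 2318 and 2809.7 at 4 h, 2844 at 12 h and 3397 and 3597 at 36 h; its value for 36 h over 4 h was log2 0.45 (SE 0.18, edgeR adjusted p = 0.0779). HSP90AB1 (0.35, SE 0.18) and HSP90AA1 (0.21, SE 0.22) had log2 values above 0 that did not pass either, and the 36 h pair of HSP90AA1, 1160.2 and 1791 CPM, spread by 1.54-fold. HSPH1, the leader after LINC00520 transduction, stood at log2 -0.02 (SE 0.15). The inducible HSPA1B had 53.2 and 21.2 CPM at 36 h, against 47.8 and 80.2 CPM at 4 h, which spread by 2.52-fold and 1.68-fold within pairs. Over the 34 genes the SE of this comparison ran between 0.15 and 0.40, while its median after LINC00520 transduction was 0.031.

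These counts moved with single libraries, as did the calls over all genes. Without the 4 h replicate 1 library 13 of the 34 were called lower (23.9% of all genes), and without the 4 h replicate 2 library 4 were called higher (HSPA8, DNAJA2, HSP90AB1 and CCT8; 23% of all genes). Without the 36 h replicate 2 library 3 were called lower (11.1% of all genes). With no scaling beyond the library total 14 genes were called lower (31% of all genes) and the median of all genes itself moved to -0.29. The authors' deposited table had 8 of the 34 genes lower at a q-value below 0.05 and 0 higher (14.8% and 13.3% of 17401 rows). They were HSPB8, HSPA4L, HSF1, FKBP4, CCT3 and STIP1, and in addition HSPA1B and BAG3.

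**Figure D4:**
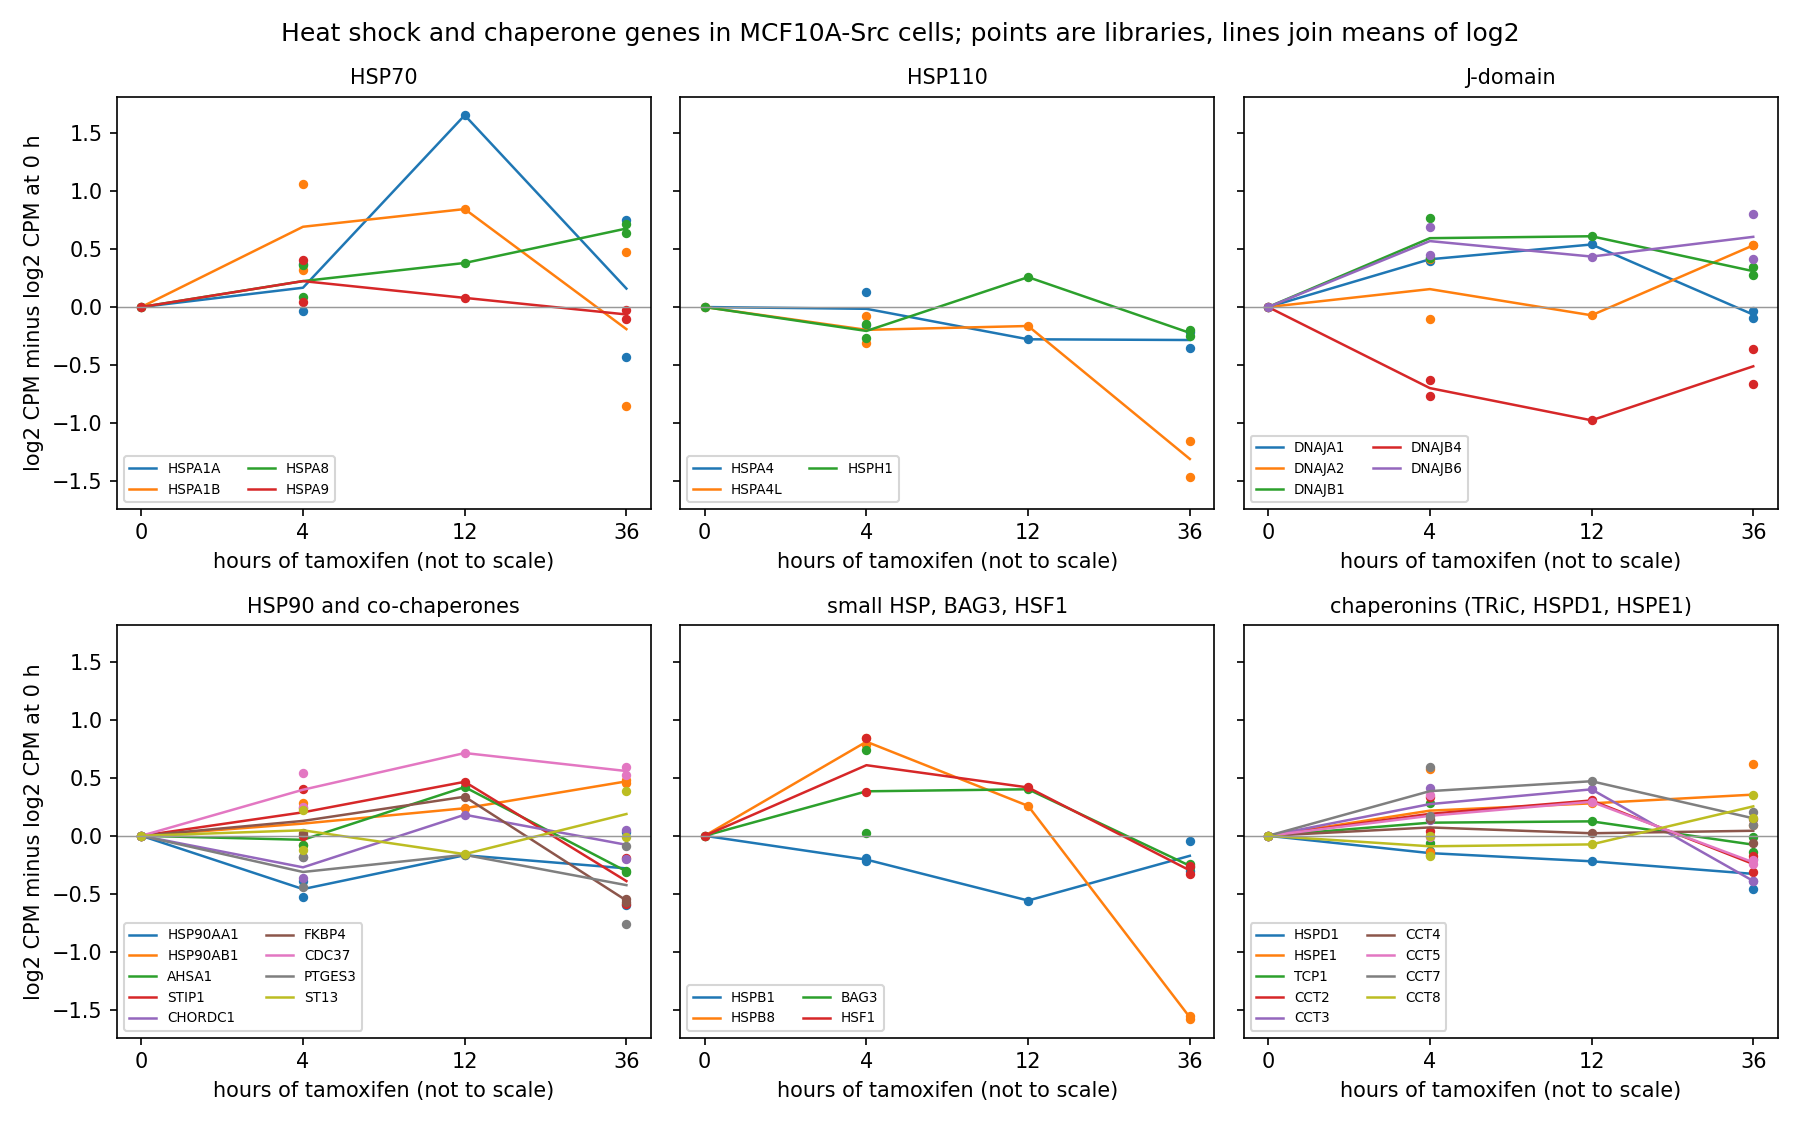
Log2 CPM minus log2 CPM of the 0 h library at 0, 4, 12 and 36 h of tamoxifen (axis not to scale), by role; points are libraries (1 at 0 h and 12 h, 2 at 4 h and 36 h) and lines join the means of log2. HSPB8 and HSPA4L drop to the bottom of their panels at 36 h, and HSPA1A stands at 1.66 in the single 12 h library.

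Against the single 0 h library, 0 of the 34 genes were called at 4 h by edgeR (6.24% of all genes were called, 3.15% higher and 3.09% lower), and 0 by DESeq2 and limma. Without adjustment 3 were higher and 1 lower at p below 0.05, against 24% of all genes in either direction. The lone 0 h library was given the spread of the replicated times. Without the 4 h replicate 1 library 4 genes were called higher (DNAJB1, DNAJB6, CDC37 and CCT7), where 12.2% of all genes were. Without the 4 h replicate 2 library 2 were called higher (BAG3 and HSF1), where 6.74% of all genes were. Each of these sets 1 library against 1. Values at 4 h were 91.9 and 116 CPM for DNAJB1, against 68.5 CPM at 0 h (log2 0.60, SE 0.21, edgeR adjusted p = 0.133), and 14.5 and 16.0 CPM for DNAJB4, against 24.7 CPM at 0 h (log2 -0.70, SE 0.23, edgeR adjusted p = 0.115). In the authors' deposited table HSPA1B and DNAJB1 were higher at 4 h at a q-value below 0.05 (5.45% of 17507 rows), and 0 were lower (3.51%).

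At 36 h against 0 h, 2 genes fell and 0 rose by edgeR (9.36% and 9.99% of all genes, 19.4% in all). DESeq2 called 1 higher (HSPA8, against 11.2% of all genes) and limma 0 (6.52%). Without adjustment 3 were higher and 3 lower at p below 0.05, against 34.5% of all genes in either direction. HSPA4L fell by 1.302 (SE 0.20, edgeR adjusted p = 0.00434) and HSPB8 by 1.55 (SE 0.43, edgeR adjusted p = 0.0419) on the log2 scale. HSPB8 lost its call with DESeq2 and limma and without either 36 h library (edgeR adjusted p = 0.218 and 0.162). Without a 4 h library, which enters through the shared spread, 4 or 5 genes were called higher, HSPA8, DNAJA2, DNAJB6 and CDC37 in both cases, where 17.3% and 18.5% of all genes were. In the authors' deposited table DNAJA2 and CDC37 were higher and HSPA4L lower at a q-value below 0.05 (9.39% and 6.94% of 17893 rows). The comparisons with 4 h and with 0 h share the 36 h libraries, and those with 0 h share that library.

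The 12 h library has no replicate, so its values are descriptions without a test. Relative to 0 h, 4 of the 34 genes were at 1.5-fold or more above (13.2% of 15345 genes) and 1 was at 1.5-fold or more below (14.2%). The 4 included both inducible HSP70 rows, HSPA1A with 8.06 CPM at 12 h, against 2.56 CPM at 0 h, and HSPA1B with 68.9 CPM at 12 h, against 38.3 CPM at 0 h. CDC37 had 106 CPM at 12 h, against 64.5 CPM at 0 h, and DNAJB1 had 105 CPM at 12 h, against 68.5 CPM at 0 h. DNAJB4 was the one below, with 12.5 CPM at 12 h, against 24.7 CPM at 0 h. The median log2 ratio was 0.27 over the 34 genes and -0.025 over all genes. In all, 8 genes had their highest level of the 6 libraries at 12 h (13.5% of all genes did): HSPA1A, HSPH1, DNAJA1, AHSA1, STIP1, CHORDC1, FKBP4 and CDC37. More of them, 10, had it in the 4 h replicate 2 library (19.7% of all genes), and 2 in 4 h replicate 1 (15.4%).

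The 34 genes together held 1.32% of fragments at 0 h, then 1.21% and 1.38% at 4 h, 1.43% at 12 h, and 1.09% and 1.13% at 36 h. On this unscaled share the 36 h libraries were the lowest and the 12 h library the highest. With TMM scaling that order did not hold: the summed level was 12067 CPM at 0 h, then 11623 and 13649 CPM at 4 h, 13400 CPM at 12 h, and 12617 and 13507 CPM at 36 h, so the times overlapped. Epithelial markers moved over the same times: of 6 basal markers 4 fell and 1 rose at 36 h against 4 h, KRT5 at log2 -1.42 and LAMB3 at log2 1.496, and their sum was 8389 to 9303 CPM at 36 h and 12058 to 12348 CPM at 4 h. Of 4 luminal markers 2 fell (sums of 786 to 824 CPM at 36 h and 1247 to 1258 CPM at 4 h). Fibroblast markers summed to 175 to 199.6 CPM at 36 h and 83.7 to 91.3 CPM at 4 h, led by DCN, with COL3A1 at or near 0, and immune or blood markers to 17.2 to 19.8 CPM at 36 h and 9.72 to 11.3 CPM at 4 h, led by CD14. The part of these shifts in the chaperone values was not tested.

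Other genes of the same pathways were listed by function. Of the 86 tested genes of these lists 31.4% rose after LINC00520 transduction and 17.4% fell, against 25.2% and 24.8% of all genes. After LINC00520 transduction 11 of 22 tested further HSP70 and HSP90 co-chaperones rose and 4 fell (median log2 0.10). NUDCD1, a relative of the HSP90-binding NUDC, rose by 0.40 (SE 0.037) and NUDC by 0.31 (SE 0.037), HSPA1L by 0.47 (SE 0.056) in a locus shared with HSPA1A, and BAG1, a nucleotide exchange factor of HSP70, fell by 0.43 (SE 0.040). Of 22 further J-domain genes 5 rose and 4 fell (median 0.03), among them DNAJC9, whose row also carries MRPS16 (0.24, SE 0.030), DNAJC10 of the endoplasmic reticulum (0.21, SE 0.029), the ribosome-bound DNAJC2 (0.21, SE 0.040) and DNAJB2 (-0.47, SE 0.073). Of 16 prefoldin, tubulin cofactor and remaining chaperonin genes 6 rose and 2 fell (median 0.06). TXNDC9, a regulator of TRiC, rose by 0.43 (SE 0.048) and the TRiC subunit CCT6A by 0.19 (SE 0.028), while TBCA (-0.16, SE 0.031) and PFDN5 (-0.17, SE 0.034) fell.

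Of 13 mitochondrial chaperones and proteases 1 rose and 3 fell (median log2 -0.09), where 25.2% of all genes rose and 24.8% fell. TRAP1, the mitochondrial HSP90, fell by 0.22 (SE 0.030), with 252 and 262 CPM in LINC00520 cells, against 305, 303 and 292 CPM in untransduced cells, and the proteases and disaggregases LONP1 (-0.12, SE 0.033) and CLPB (-0.15, SE 0.050) fell as well. GRPEL1, the exchange factor of HSPA9, rose by 0.20 (SE 0.037). Of 13 other heat shock factors, small heat shock proteins and stress targets 4 rose and 2 fell (median 0.04): CRYAB, a small heat shock protein, rose by 0.98 (SE 0.22) on 47 fragments in each LINC00520 library, against 42, 28 and 20 in untransduced cells, HSPB11 rose by 0.26, and the autophagy receptor SQSTM1 (-0.45, SE 0.031) fell.

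Between 4 h and 36 h of tamoxifen, 6 of 23 further co-chaperones fell and 3 rose (median log2 -0.21). Of the 87 tested genes of all these lists 27.6% fell and 17.2% rose, against 20.5% and 18.8% of all genes. HSPBP1 (-1.44, SE 0.22), SGTA (-1.19, SE 0.16), BAG1 (-1.04, SE 0.17) and STUB1, the ubiquitin ligase that marks HSP70 clients (-0.93, SE 0.19), all fell. Of 22 J-domain genes 6 rose and 4 fell (median 0.13). DNAJB5 had 23.0 and 22.0 CPM at 36 h, against 1.71 and 1.70 CPM at 4 h (log2 3.72, SE 0.23, edgeR adjusted p = 3.19e-05), DNAJC7 (0.85, SE 0.16) and DNAJC21 (0.81, SE 0.16) rose, and the mitochondrial DNAJC11 fell by 1.54 (SE 0.20). Of 16 prefoldin and tubulin cofactor genes 5 fell and 2 rose (median -0.18); PDRG1 (-1.13), TBCC (-0.93), TBCB (-0.87) and TBCD (-0.87) fell. Of 13 mitochondrial genes 7 fell and 1 rose (median -0.62), with CLPB (-1.09), GRPEL2 (-0.95), CLPP (-0.92) and TRAP1 (-0.70) among those that fell. Of 13 other stress genes 3 rose and 2 fell (median -0.14): DEDD2 (1.27) and HSF2, a second heat shock factor (0.79), rose, and SQSTM1 (-0.78) and IER5 (-0.71) fell.

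At 4 h against 0 h, 4 of the 87 tested genes of these lists rose (4.6%) and 1 fell (1.15%), shares near those of all genes (3.15% and 3.09%). These genes are named here after their values were seen, as values only. HMOX1, heme oxygenase, had 4.98 and 7.38 CPM at 4 h, against 1.38 CPM at 0 h (log2 2.16, SE 0.37, edgeR adjusted p = 0.0169). The row that carries HSPA6, an HSP70 gene expressed almost only under stress, together with FCGR2A had 2.13 and 6.79 CPM at 4 h, against 0.490 CPM at 0 h (log2 3.19, SE 0.68, edgeR adjusted p = 0.0348), and 11.7 and 10.8 CPM at 36 h. The rows of HMOX1 and HSPA6 were low at 0 h, and 1 library at an FPKM of 1 was enough for testing. A row that reached it only under tamoxifen entered the test through those libraries, so the filter could favour these rises. IER5 (1.11, SE 0.21) and GRPEL1 (1.05, SE 0.20) rose, and DNAJB5 fell by 1.35 (SE 0.25) on the log2 scale.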

How the data were processed

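PolyA RNA-seq libraries of MCF10A-Src cells (6) and parental MCF10A cells (5) were analysed. Base calling with CASAVA 1.4, TopHat alignment to hg19 and Cuffdiff are named in the submitters' processing notes; their other versions, the annotation and strand setting are not given in the sources used here. Per the file headers, the authors' tables hold an estimated count of fragments and an FPKM value (scaled by length and library) for each of 38369 rows. The authors' deposited calls tables hold p-values, q-values and a log2 fold change; the authors' deposited time-course log2 column reached values too large for that scale and was read as a score, for its sign alone. The control lincRNA samples matched no column name, and 7 further libraries of the over-expression table matched no label; none of these was used.

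Estimated counts were rounded (98.85% to 99.94% of values per library were whole within 0.01). Genes at an FPKM of at least 1, in 2 libraries (parental cells) or in 1 (time course), with status OK in all, entered edgeR's quasi-likelihood test with TMM scaling, 1 coefficient per group, and Benjamini-Hochberg adjustment over all 12790 or 15572 genes (threshold 0.05, two-sided). SE is the absolute log2 fold change over the square root of F. Groups of 1 library were assumed to vary like the replicated ones. A symbol with several rows was read from the reference chromosomes. There a row named for that symbol alone was preferred if it held enough fragments, and otherwise the row with the most fragments was used. The 8 haplotype rows of members held no fragments. All 34 genes were tested in both experiments.

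Members, lists, the rule for named genes and the alternatives (DESeq2, limma on log2(FPKM + 1) or log2(FPKM + 0.1), scaling, filters, left-out libraries, replicate block) were chosen with earlier results of these data known. Values in every library are given for the called members with the 10 largest changes and for HSF1, and up to 4 genes of each other list by p. The test was checked on counts simulated with the same spread for all genes. This covered the recovery of set fold changes. It did not cover spread that differs between genes or the assumption made for groups of 1 library. The versions were edgeR 4.0.16, DESeq2 1.42.0 and limma 3.58.1 in R 4.3.3; sequences are from RefSeq (GRCh38.p14), which was not joined to hg19 positions.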

Additional observations from a re-analysis of the deposited data

How the results depend on the processing

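After LINC00520 transduction 24 genes were higher and 2 lower. The other settings gave 17 to 26 higher and 2 to 3 lower, leaving out each untransduced library 18 to 23 higher and 2 to 3 lower. Of all genes 19.5% were higher and 19.2% lower with DESeq2, and 21.4% and 20.9% with limma on log2(FPKM + 1). No called gene changed direction under any alternative. For 36 h over 4 h (0 higher, 7 lower), DESeq2 called 1 higher (18.6% of all genes) and 7 lower (17.1%). Limma with either pseudocount called 4 lower (14.9% of all genes with a pseudocount of 1), and no scaling beyond the library total 14 lower (31%). Leaving out each library gave 0 to 4 higher and 3 to 13 lower. For 4 h over 0 h (0 and 0), no filter on low values called 1 higher, and leaving out libraries gave 0 to 4 higher. For 36 h over 0 h (0 higher, 2 lower), DESeq2 called 1 higher and 1 lower, no filter 1 higher, limma 1 lower with a pseudocount of 1 and 0 lower with 0.1, and no scaling beyond the library total 10 lower; leaving out libraries gave 0 to 5 higher and 1 to 3 lower. Without that scaling the median of all genes was -0.29 for 36 h over 4 h and -0.43 for 36 h over 0 h, so the counts of lower genes are relative to it. For 36 h over 0 h, 24% of all genes were lower without it, 7.04% with DESeq2 and 3.46% with limma (pseudocount of 1). The cause of the other shifts was not tested. Among genes not called, 14, 10 and 13 changed sign under some alternative in the 3 time comparisons, in that order, and 0 of 8 after LINC00520 transduction. With the replicate number as a block, 17 genes were higher and 2 lower after transduction (2743 and 2738 of all 12790 genes). At 36 h against 4 h this block gave 0 higher and 8 lower (3080 and 3373 of all 15572 genes). Same-numbered libraries had correlated deviations of -0.07 for both numbers after transduction and 0.12 in the time course. With 2 libraries a group the deviations mirror each other, so the time-course correlation is a single value for both numbers. So few libraries cannot decide whether the numbers pair them, and they were not taken to. No paired analysis was possible for comparisons with 0 h because it has 1 library. Low counts limit HSPB8 (10 and 5 fragments at 36 h) and HSPA1A (62 and 53 in LINC00520 cells), and spread within pairs limits HSPA1B (2.52-fold at 36 h).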

Other observations

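In deposited FPKM, HSPB1 and HSPE1 stood far lower in the MCF10A-Src libraries than in parental cells. HSPB1 was at 32.8 FPKM in MCF10A-Src cells at 0 h, against 180.3 ± 4.88 FPKM in untransduced parental cells (SD, n = 3). HSPE1 was at 61.1 FPKM in MCF10A-Src cells at 0 h, against 279.5 ± 9.78 FPKM in untransduced parental cells. As log2 ratios these are -2.46 and -2.19, against a median of -0.26 over all rows at FPKM of 1 or more in both; 0.712% and 1.35% of rows lay at or below them. The tables were normalized separately and 0 h has 1 library, so these are values side by side without a test, and cell line, experiment and library preparation cannot be told apart.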
